A study of Homo sapiens with 6 samples.

Results

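The genes of respiratory complexes II, III, IV and V were followed in Mono-Mac-6, a human monocytic acute myeloid leukaemia cell line that carries the MLL-AF9 fusion gene. Members were taken by symbol from the deposited expression table: SDHA, SDHB, SDHC, SDHD, CYC1, CYCS, and every name that begins with SDHAF, UQCR, UQCC, ATP5, or COX and a digit. This gave 66 of the 18806 genes in the table, of which 58 had a mean of at least 1 TPM and were tested among 10911 genes that passed the same filter. By complex, 8 members belonged to complex II, 13 to complex III, 25 to complex IV and 16 to complex V. Cytochrome c and 3 names that fall outside the complexes made up the rest. The table lists mRNA of nuclear genes under older symbols for ATP synthase, so ATP5A1 stands for ATP5F1A, ATP5B for ATP5F1B, ATP5J for ATP5PF, and ATP5G1, ATP5G2 and ATP5G3 for ATP5MC1, ATP5MC2 and ATP5MC3. The subunits encoded by mitochondrial DNA, and complex IV factor COX11, were not analysed here.

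Poly(A) RNA was sequenced from 3 groups with 2 libraries each. The groups received the METTL1 guide sgMETTL1.3, the METTL1 guide sgMETTL1.6, or the control guide sgNS. Every group came from 1 Cas9-expressing clone of the line, was transduced by lentivirus, was selected with blasticidin at 10 µg/ml and hygromycin B at 200 µg/ml, and was harvested about 8 to 10 days after transduction. A single clone limits what the comparison says of the line. The descriptions of all 6 libraries also carry the letters EV, which the labels do not explain. The labels do not say whether the 2 libraries of a group came from separate cultures, so the p-values rest on a spread between libraries that may be only technical. METTL1 is a methyltransferase that places 7-methylguanosine on tRNA, and the series asked how its loss changes gene expression.

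The respiratory chain of the inner mitochondrial membrane passes electrons from NADH and succinate to oxygen and pumps protons as it does so. Complex II (succinate dehydrogenase) feeds electrons from succinate to ubiquinone without pumping, complex III (the cytochrome bc1 complex) passes them on to cytochrome c, and complex IV (cytochrome c oxidase) hands them to oxygen. Complex V (ATP synthase) lets the protons flow back and makes ATP. All complex II subunits are encoded in the nucleus, whereas complexes III, IV and V join nuclear subunits to a core or a few subunits made on mitochondrial ribosomes, and dedicated assembly factors insert haem, copper and iron-sulfur centres.

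METTL1 itself had 18.3 and 16.6 TPM in the sgMETTL1.3-labelled libraries, 11.2 and 11.7 TPM in the sgMETTL1.6-labelled libraries and 15.4 and 13.9 TPM in the sgNS-labelled libraries. Its level with sgMETTL1.3 was above that with sgNS, by 0.24 (SE 0.071, limma adjusted p = 0.0111) on the log2 scale, so the mRNA of the sgMETTL1.3 libraries ran against their label. With sgMETTL1.6 it was lower than with sgNS, with a change of -0.33 (SE 0.071, limma adjusted p = 0.00167). Over both guides the change was -0.047 (SE 0.061, limma adjusted p = 0.53), and an exact two-sided permutation test over the libraries gave p = 0.933; with 15 splits the smallest one-sided p is 0.0667. A summed TPM does not read a Cas9 cut, and the protein blot named in the design text was not analysed here, so groups are named here by their labels. Of 10 myeloid markers, 8 stood above 1 TPM in every library, including LYZ at 9206 to 11419 TPM, whereas the monocyte genes CD14 and CSF1R stayed at or under 1 TPM. The summed level of the 10 was 11483 to 13129 TPM in the guide libraries and 13580 to 14114 TPM in the sgNS libraries, and LYZ made up most of it. The markers did not move as one. SPI1 had 331 and 336 TPM in sgMETTL1.3 cells, 272 and 298 TPM in sgMETTL1.6 cells and 263 and 272 TPM in sgNS cells, and CEBPA was higher in every guide library than in sgNS. PTPRC, FLT3, CD68, ITGAM and LYZ were lower in every guide library than in both sgNS libraries, and so was CD14, under 1 TPM. For LYZ the gap was narrow with sgMETTL1.3, at 10827 and 10744 TPM against 11419 and 10839 TPM with sgNS. CD33 and CSF1R overlapped sgNS. Among markers of other cells, CD3E, CD3D, MS4A1 and HBB were listed at 0 throughout, CD8A had 1.12 to 2.53 TPM, HBA1 reached 2.67 TPM, and KRT18 had 11.5 to 16.3 TPM. The part of these marker levels in the results below was not tested. TPM values keep no sequencing depth, so counting error is unknown. Over the 58 tested members, the 2 libraries of a group differed by a median of 2.54% with sgMETTL1.3, 2.92% with sgMETTL1.6 and 2.32% with sgNS.

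Genes of the 4 complexes were mostly higher in the METTL1-guide libraries, with the highest median change in complex III and the lowest in complex IV. Over both guides against sgNS, 42 of the 58 tested members rose, 7 fell and 9 did not pass the test, at a limma adjusted p under 0.05. Change was wide across the transcriptome: 59.4% of all genes tested were called, 32.6% as higher and 26.8% as lower. The members' median change was 0.18 on the log2(TPM + 1) scale, beside 0.023 for all genes tested. That scale understates the change of low genes. In 41 members all 4 guide libraries lay above both sgNS libraries, in 7 they lay below, and in 10 they overlapped. Among all genes tested, 60.2% separated in this way, 32.9% with the guide libraries above and 27.3% with them below. TPM is a share of all mRNA, so more of these transcripts per cell cannot be told apart from less of other mRNA, nor fewer cells of a kind from less RNA per cell.

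Most members also rose with each guide taken alone. With sgMETTL1.3, 37 rose, 9 fell and 12 did not pass, with a median of 0.16, in a comparison that called 58.5% of all genes (34.3% higher, 24.2% lower). With sgMETTL1.6, 43 rose, 5 fell and 10 did not pass, with a median of 0.20, where 51% of all genes were called (25.7% higher, 25.3% lower). Both comparisons use the same 2 sgNS libraries. Summed over the 66 members, the level was 19626 ± 285 TPM in sgMETTL1.3 cells, 20504 ± 102 TPM in sgMETTL1.6 cells and 17900.4 ± 56.2 TPM in sgNS cells (SD, n = 2 each). The sum exceeded that of sgNS by 9.64% with sgMETTL1.3 and 14.5% with sgMETTL1.6.

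Counts and medians differed by complex. In complex III, 11 of 13 members rose and 1 fell, with a median change of 0.31. In complex V, 14 of 16 rose and 2 fell, with a median of 0.18. In complex II, 4 of 8 rose and 1 fell, with a median of 0.15. In complex IV, 11 of 19 tested members rose, 3 fell and 5 did not pass, with a median of 0.10. The rises were 84.6% of complex III, 87.5% of complex V, 50% of complex II and 57.9% of complex IV, beside 32.6% of all genes. The falls were 7.69%, 12.5%, 12.5% and 15.8% in the same order, beside 26.8%. Taken by guide, complex IV had 7 rises and 3 falls with sgMETTL1.3, a median of 0.050, and 11 rises and 3 falls with sgMETTL1.6, a median of 0.14. Its share of rises with sgMETTL1.3, 36.8%, was near the 34.3% of all genes. With sgMETTL1.6 that share was 57.9%, beside 25.7% of all genes. Complex II had 4 rises (50%) and 3 falls (37.5%) with sgMETTL1.3, beside 34.3% and 24.2% of all genes. With sgMETTL1.6 it had 5 rises (62.5%) and 0 falls, beside 25.7% and 25.3%. Complex III had 11 rises (84.6%) with sgMETTL1.3 and 12 (92.3%) with sgMETTL1.6, with 1 fall (7.69%) each. Complex V had 13 rises (81.3%) with either guide, and 2 falls (12.5%) with sgMETTL1.3 and 1 (6.25%) with sgMETTL1.6. The shares of all genes are those given for complex II. Without sgNS replicate 1, the rises in complex IV numbered 7 and the falls over all members 3. No test of the difference between complexes was made, since genes are not replicates of a condition.

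**Figure D1:**
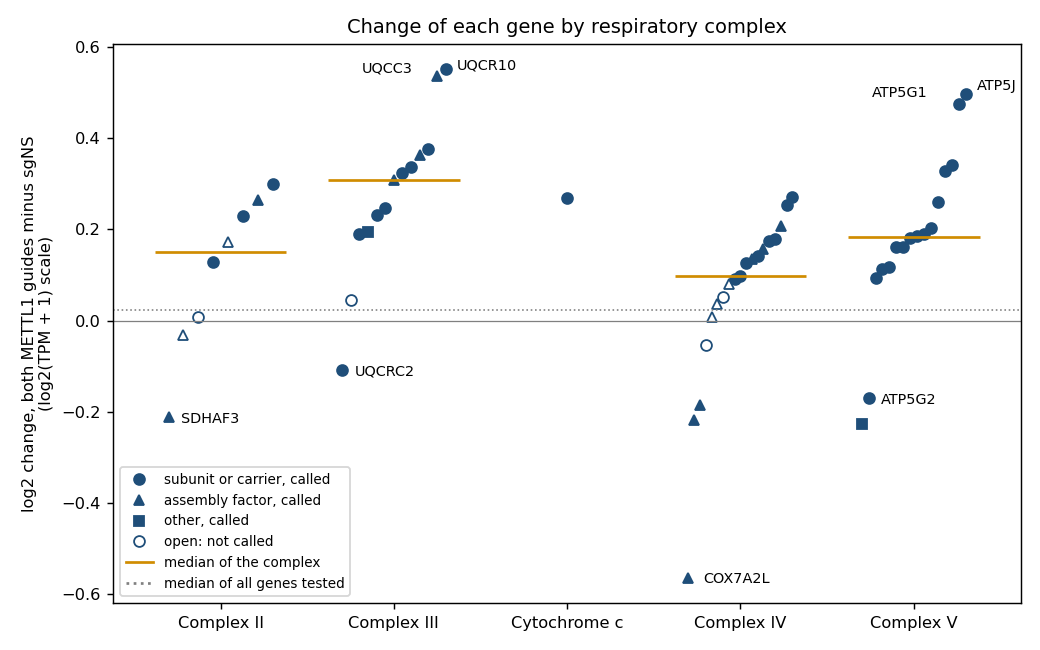
Each point is the log2(TPM + 1) change of 1 tested member, both METTL1 guides minus sgNS, grouped by complex and ordered by size; filled points were called, triangles are assembly factors and orange lines are medians. Complex III has the highest median, at 0.31, and complex IV reaches from 0.27 (COX6B1) down to -0.56 (COX7A2L).

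Structural subunits rose in most cases. Of 38 subunits, 32 rose, 2 fell (UQCRC2 and ATP5G2) and 4 did not pass, with a median of 0.18. Of 16 assembly factors, 7 rose (43.8%), 4 fell (25%) and 5 did not pass, with a median of 0.11, beside 32.6% and 26.8% of all genes. In complex IV, 8 of 10 subunits rose and none fell over both guides. With sgMETTL1.3 alone 5 of 10 rose, with a median of 0.063, and with sgMETTL1.6 alone 8 of 10 did, with a median of 0.20. Of the 9 complex IV factors, 3 rose and 3 fell, about the share among all genes. The difference between subunits and factors was not tested.

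Summed per complex, the subunits of complex V gave 8655 and 8754 TPM in sgMETTL1.3 cells, 8877 and 8951 TPM in sgMETTL1.6 cells and 7666 and 7623 TPM in sgNS cells. Those of complex III gave 1792 and 1861 TPM in sgMETTL1.3 cells, 1838 and 1884 TPM in sgMETTL1.6 cells and 1577 and 1585 TPM in sgNS cells. Every guide library lay above both sgNS libraries in these sums, and in those of complexes IV and II. For complex IV the sums were 7072 and 7298 TPM in sgMETTL1.3 cells, 7673 and 7726 TPM in sgMETTL1.6 cells and 6820.2 and 6830.2 TPM in sgNS cells. Complex II subunits summed to 595 and 613 TPM in sgMETTL1.3 cells, 664 and 658 TPM in sgMETTL1.6 cells and 588 and 568 TPM in sgNS cells. Relative to sgNS, the sums were higher by 13.9% with sgMETTL1.3 and 16.6% with sgMETTL1.6 for complex V, by 15.5% with sgMETTL1.3 and 17.7% with sgMETTL1.6 for complex III, by 5.27% with sgMETTL1.3 and 12.8% with sgMETTL1.6 for complex IV and by 4.47% with sgMETTL1.3 and 14.3% with sgMETTL1.6 for complex II. The complex IV factors summed to 548 ± 6.08 TPM in sgMETTL1.3 cells and 584 ± 8.87 TPM in sgMETTL1.6 cells. In sgNS cells they summed to 607 ± 14.4 TPM (SD, n = 2 each). Most of this lower sum lay in COX7A2L, which averaged 85.5 TPM with sgMETTL1.3, 80.0 TPM with sgMETTL1.6 and 123 TPM with sgNS. With sgMETTL1.6 the fall of COX7A2L was larger than that of the sum, so the other factors together were not lower there. With sgMETTL1.3 it was smaller than that of the sum, so other factors had a part in the lower sum. With that guide, 2 of the 9 factors rose (22.2%) and 3 fell (33.3%), beside 34.3% and 24.2% of all genes.

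**Figure D2:**
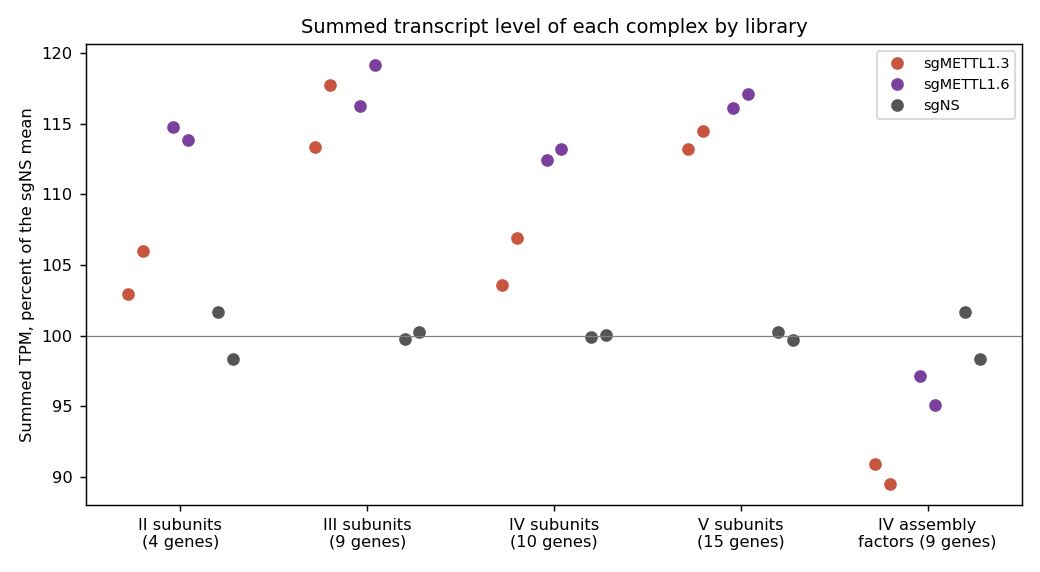
Summed TPM per library, as a percentage of the sgNS mean, is shown for the subunits of each complex and for the complex IV assembly factors, 1 point per library; the axis does not start at 0. All guide libraries lie above sgNS for the subunits of the 4 complexes and below it for the complex IV factors, whose lower sum lies mostly in COX7A2L.

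Levels differed widely among the members. A mean of at least 1000 TPM was reached by 6, a mean of 100 to under 1000 TPM by 31, a mean of 1 to under 100 TPM by 21, and 8 stayed under 1 TPM. TPM is per length, so levels can be compared between genes roughly, with less certainty where a gene shares sequence with others. The highest included the F1 subunits ATP5B, ATP5E and ATP5A1, the membrane subunit ATP5J2 and the complex IV subunits COX7C and COX7B. The 8 lowest were 6 alternative complex IV isoforms, ATP5L2 (a copy of the subunit g gene) and the read-through gene ATP5J2-PTCD1, which was listed at 0 in every library. For complex IV, the mRNA was that of the common isoforms. The heart and muscle forms COX6A2 and COX7A1, the testis form COX6B2 and the alternative forms COX4I2, COX7B2 and COX8C never passed 0.910 TPM in a library. The common forms COX4I1, COX6A1, COX6B1, COX7A2, COX7B and COX8A had means of 517 to 1003 TPM over the 6 libraries.

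**Figure D3:**
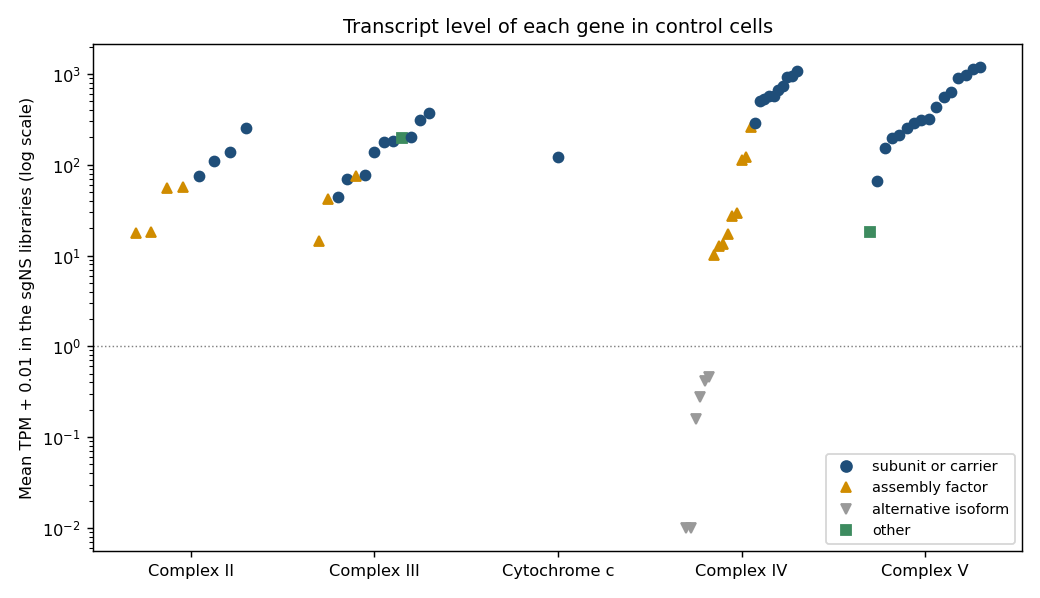
Mean TPM in the 2 sgNS libraries, plus 0.01, is plotted on a log axis for each gene of the complexes and CYCS, ordered by level within its complex. Complex IV subunits lie above 200 TPM, most assembly factors between 10 and 100 TPM, and the alternative isoforms of complex IV under 1 TPM.

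Promoter windows of 300 bases, from 250 before to 50 after a transcript start, were available for 47 of the 58 tested members (RefSeq, GRCh38.p14). Nuclear respiratory genes are known as targets of NRF1, of the ETS-family factor GABP, of YY1 and of SP1. Motif letters were searched on both strands: GCGCA, any base and GCGC for NRF1, CCGGAAG for ETS factors, AAGATGGC for YY1 and GGGCGG for SP1. In the members' windows, no match of the first 3 motifs overlapped a match of a different one of them. The NRF1 letters were present in 15 of 47 members (31.9%), beside 14.3% of 9195 tested genes and 7.0% of all 27305 genes with a window. The ETS letters stood in 21 members (44.7%), beside 23.7% and 12.2%. YY1 letters stood in 7 members (14.9%), beside 6.7% and 3.5%. SP1 letters stood in 29 members (61.7%), beside 76.7% and 48.3%. By direction, the NRF1 letters were in 10 of 33 members that rose, 1 of 6 that fell and 4 of 8 that did not pass. A match is a run of letters, not a measured binding site.

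The windows of 4 rising members and of COX7A2L, which fell furthest, show how these letters lie. They were picked for this and do not stand for their groups: SDHAF3 and COX20, which fell, have matches to the NRF1 or ETS letters, whereas ATP5G1, which rose, has none of any motif. Capitals mark matches to the NRF1, ETS or YY1 letters on either strand, and each window reads along its gene. UQCR10, a small subunit of complex III, has 1 NRF1 match close to its start at chr22:29767119-29767418 (plus strand). UQCR11, another small subunit, has 2 NRF1 and 2 ETS matches at chr19:1605413-1605712 (minus strand). SDHA, the succinate-oxidizing flavoprotein of complex II, repeats the NRF1 letters 4 times at chr5:218070-218369 (plus strand). ATP5J, the F6 subunit of the ATP synthase stalk, has 1 YY1 and 2 ETS matches in 1 of its 2 windows, at chr21:25734855-25735154 (minus strand). COX7A2L, at chr2:42361168-42361467 (minus strand, 1 of 2 windows), holds no NRF1, ETS or YY1 letters and 1 SP1 match, which is not capitalized. This says nothing on whether the factors bind.
UQCR10: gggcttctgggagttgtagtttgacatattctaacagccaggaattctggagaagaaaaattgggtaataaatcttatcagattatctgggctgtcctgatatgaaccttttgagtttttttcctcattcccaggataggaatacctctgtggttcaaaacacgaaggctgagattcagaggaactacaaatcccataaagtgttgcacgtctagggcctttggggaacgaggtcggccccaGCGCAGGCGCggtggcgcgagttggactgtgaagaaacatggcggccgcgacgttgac
UQCR11: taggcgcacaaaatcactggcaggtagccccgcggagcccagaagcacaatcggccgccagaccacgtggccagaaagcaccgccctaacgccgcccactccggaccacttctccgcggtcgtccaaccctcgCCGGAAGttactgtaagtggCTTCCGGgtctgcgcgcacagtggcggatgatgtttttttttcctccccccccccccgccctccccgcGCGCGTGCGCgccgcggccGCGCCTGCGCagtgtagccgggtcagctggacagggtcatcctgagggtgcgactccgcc
SDHA: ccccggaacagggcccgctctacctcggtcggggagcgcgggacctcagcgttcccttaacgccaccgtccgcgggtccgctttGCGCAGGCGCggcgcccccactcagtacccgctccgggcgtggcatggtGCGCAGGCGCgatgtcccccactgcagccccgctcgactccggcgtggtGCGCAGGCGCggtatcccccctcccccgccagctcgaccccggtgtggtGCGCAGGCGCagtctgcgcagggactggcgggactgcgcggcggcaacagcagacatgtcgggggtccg
ATP5J: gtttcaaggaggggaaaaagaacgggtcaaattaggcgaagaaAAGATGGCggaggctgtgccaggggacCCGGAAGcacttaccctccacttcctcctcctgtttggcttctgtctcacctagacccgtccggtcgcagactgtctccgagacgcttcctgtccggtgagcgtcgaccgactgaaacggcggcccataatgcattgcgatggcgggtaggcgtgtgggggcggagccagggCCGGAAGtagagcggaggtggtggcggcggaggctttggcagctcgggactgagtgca
COX7A2L: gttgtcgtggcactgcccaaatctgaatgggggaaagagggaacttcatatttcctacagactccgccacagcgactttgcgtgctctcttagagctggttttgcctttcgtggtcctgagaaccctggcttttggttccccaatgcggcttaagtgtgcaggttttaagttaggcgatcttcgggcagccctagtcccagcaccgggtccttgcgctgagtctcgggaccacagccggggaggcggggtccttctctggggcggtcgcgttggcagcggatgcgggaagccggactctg

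The highest rises among the members, in UQCR10 and UQCC3, were both in complex III. UQCR10 (22:29767369-29770413 in GRCh38, GENCODE 29) had 65.9 and 65.6 TPM in the sgMETTL1.3-labelled libraries, 66.1 and 63.4 TPM in the sgMETTL1.6-labelled libraries and 44.8 and 43.7 TPM in the sgNS-labelled libraries. All 4 guide libraries lay well above both sgNS libraries, and the log2 change was 0.55 (SE 0.038, limma adjusted p = 6.73e-08). UQCC3, a factor for cytochrome b assembly, had 21.7 and 22.2 TPM in sgMETTL1.3 cells, 20.6 and 20.1 TPM in sgMETTL1.6 cells and 13.3 and 15.3 TPM in sgNS cells. It too separated fully, with a change of 0.54 (SE 0.058, limma adjusted p = 4.84e-06). UQCRQ, a small subunit, had 101 and 96.7 TPM in sgMETTL1.3 cells, 97.0 and 105 TPM in sgMETTL1.6 cells and 76.0 and 77.8 TPM in sgNS cells. Its change was 0.38 (SE 0.040, limma adjusted p = 4.16e-06).

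The electron-carrying subunits of complex III rose as well. UQCRFS1, the Rieske iron-sulfur protein, had 226 and 234 TPM in sgMETTL1.3 cells, 232 and 227 TPM in sgMETTL1.6 cells and 186 and 182 TPM in sgNS cells, a change of 0.32 (SE 0.030, limma adjusted p = 1.28e-06). CYC1, which is cytochrome c1, averaged 378 ± 27.9 TPM in sgMETTL1.3 cells, 362 ± 14.9 TPM in sgMETTL1.6 cells and 315 ± 7.93 TPM in sgNS cells (SD, n = 2 each), a change of 0.23 (SE 0.040, limma adjusted p = 0.000258). The core proteins parted ways. UQCRC1 averaged 249 ± 14.3 TPM in sgMETTL1.3 cells, 228 ± 10.3 TPM in sgMETTL1.6 cells and 201 ± 3.54 TPM in sgNS cells (SD, n = 2 each) and rose by 0.25 (SE 0.038, limma adjusted p = 0.000106), whereas UQCRC2 had 167 and 171 TPM in sgMETTL1.3 cells, 164 and 164 TPM in sgMETTL1.6 cells and 181 and 178 TPM in sgNS cells, and fell by 0.11 (SE 0.030, limma adjusted p = 0.00721). That fall was not called once sgNS replicate 1 was left out. All 3 assembly factors rose: UQCC1 and UQCC2, which act in cytochrome b synthesis, by 0.36 and 0.31 on the log2 scale, and UQCC3 as above. UQCRB, a small subunit, was the member that did not pass, with 68.5 and 64.9 TPM in sgMETTL1.3 cells, 76.5 and 75.8 TPM in sgMETTL1.6 cells and 68.9 and 69.3 TPM in sgNS cells. The hinge protein gene UQCRH rose by 0.19 and its intronless copy UQCRHL by 0.19. UQCRH shares 29.4% of its 50-base stretches with UQCRHL, so the division of reads between them is uncertain. Their sum held UQCRH at 63.3% and 65.4% in the sgMETTL1.3 libraries, 66.2% and 66.9% in the sgMETTL1.6 libraries and 65.5% and 65.6% in the sgNS libraries.

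Cytochrome c, the small carrier between complexes III and IV, also rose. CYCS had 136 and 136 TPM in sgMETTL1.3 cells, 165 and 152 TPM in sgMETTL1.6 cells and 130.2 and 114 TPM in sgNS cells. The guide libraries lay above both sgNS libraries, with a change of 0.27 (SE 0.049, limma adjusted p = 0.000419). Without sgNS replicate 2 the change was 0.17, and without sgNS replicate 1 it was 0.37.

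Nearly all of complex V rose. In the F1 head, which carries the catalytic sites, 5 of 5 subunits rose. The alpha subunit gene ATP5A1 had 1144 and 1107 TPM in sgMETTL1.3 cells, 1124 and 1119 TPM in sgMETTL1.6 cells and 888 and 901 TPM in sgNS cells, a change of 0.33 (SE 0.024, limma adjusted p = 1.11e-07). ATP5B, the catalytic beta subunit, averaged 1324 ± 1.05 TPM in sgMETTL1.3 cells, 1274 ± 7.44 TPM in sgMETTL1.6 cells and 1145 ± 4.88 TPM in sgNS cells (SD, n = 2 each), a change of 0.18 (SE 0.022, limma adjusted p = 1.12e-05). After quantile normalization it was 0.088, still called. Of the stalk and membrane subunits, 7 of 7 rose, with log2 changes of 0.094 to 0.50. The highest was ATP5J (21:25716503-25735673), with 204 and 209 TPM in sgMETTL1.3 cells, 234 and 225 TPM in sgMETTL1.6 cells and 155 and 153 TPM in sgNS cells. All 4 guide libraries lay above both sgNS libraries, and the change was 0.50 (SE 0.031, limma adjusted p = 2.37e-08). ATP5J2, the membrane subunit f, rose by 0.26 (SE 0.026, limma adjusted p = 2.63e-06). ATP5O, the stalk subunit OSCP, rose by 0.19, but shares 69.0% of its 50-base stretches with another annotated gene, so its reading is uncertain.

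The 3 genes of the c-ring moved in opposite directions. They encode the same mature ring protein behind different import sequences, and the ring turns as protons pass. ATP5G1 (17:48892765-48895871) had 396 and 415 TPM in sgMETTL1.3 cells, 379.6 and 418 TPM in sgMETTL1.6 cells and 293 and 284 TPM in sgNS cells, a change of 0.47 (SE 0.037, limma adjusted p = 2.56e-07). ATP5G3 (2:175176258-175184607) had 79.9 and 84.5 TPM in sgMETTL1.3 cells, 86.3 and 86.8 TPM in sgMETTL1.6 cells and 67.5 and 65.3 TPM in sgNS cells, a change of 0.34 (SE 0.037, limma adjusted p = 5.06e-06). ATP5G2 (12:53632726-53677408), in contrast, had 263 and 276 TPM in sgMETTL1.3 cells, 267 and 294 TPM in sgMETTL1.6 cells and 304 and 315 TPM in sgNS cells. It fell, with a change of -0.17 (SE 0.038, limma adjusted p = 0.00177), and its guide libraries lay below both sgNS libraries. The share of ATP5G1 in the summed c-ring TPM was 53.5% and 53.5% in the sgMETTL1.3 libraries, 51.8% and 52.3% in the sgMETTL1.6 libraries and 44.1% and 42.8% in the sgNS libraries. The share of ATP5G2 was 35.6% and 35.6% in the sgMETTL1.3 libraries, 36.4% and 36.8% in the sgMETTL1.6 libraries and 45.8% and 47.4% in the sgNS libraries. ATP5G1 was the most abundant of the 3 in the guide libraries, and ATP5G2 in the sgNS libraries. ATP5S, factor B of the synthase and the other complex V name that fell, had 14.1 and 14.5 TPM in sgMETTL1.3 cells, 16.8 and 16.1 TPM in sgMETTL1.6 cells and 19.3 and 17.0 TPM in sgNS cells, a change of -0.23 (SE 0.058, limma adjusted p = 0.00458). Without sgNS replicate 1 the change was -0.14 and was not called.

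**Figure D4:**
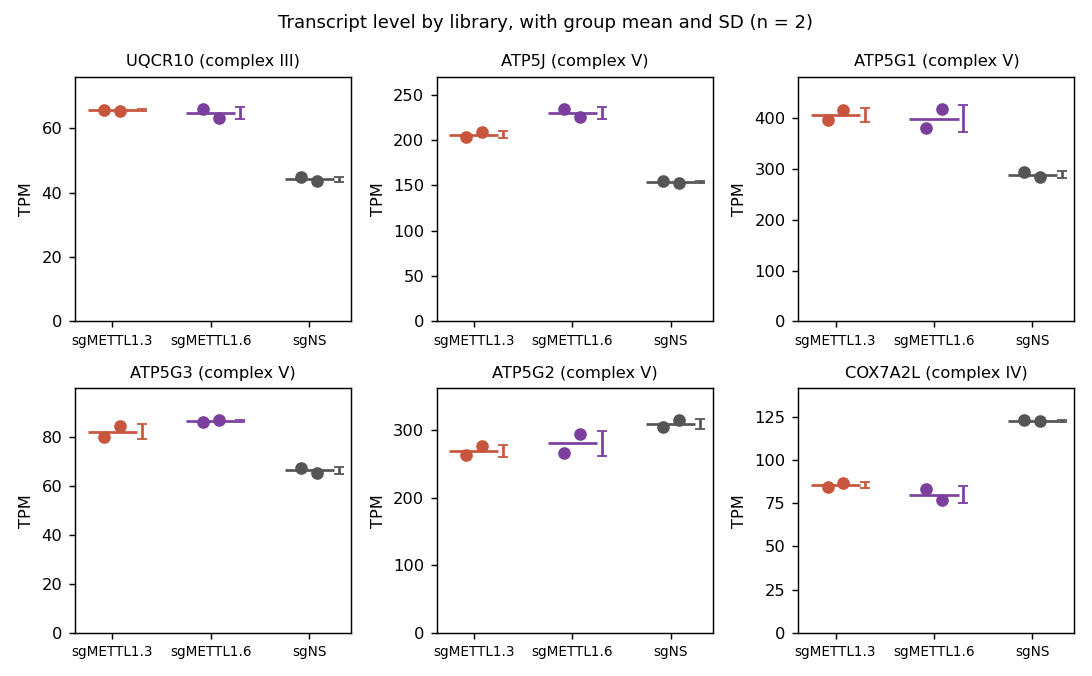
TPM in each library (points), group mean (line) and SD (bar, n = 2) are shown for UQCR10, ATP5J, ATP5G1, ATP5G3, ATP5G2 and COX7A2L. The first 4 stand higher in every guide library than in both sgNS libraries, and the last 2 stand lower.

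Complex II was mixed. SDHA, the flavoprotein that oxidizes succinate (5:218241-256700), had 138 and 138 TPM in sgMETTL1.3 cells, 128 and 136 TPM in sgMETTL1.6 cells and 108 and 111 TPM in sgNS cells, a change of 0.30 (SE 0.034, limma adjusted p = 7.6e-06). Of the 50-base stretches of SDHA, 22.3% occur in other annotated genes, and 27.7% of those of SDHD and 34.6% of those of SDHAF2, so their readings are uncertain. SDHB, the iron-sulfur subunit, averaged 149 ± 1.48 TPM in sgMETTL1.3 cells, 154 ± 4.65 TPM in sgMETTL1.6 cells and 139 ± 1.26 TPM in sgNS cells (SD, n = 2 each), a change of 0.13 (SE 0.032, limma adjusted p = 0.00373). SDHC, a membrane anchor, had 85.6 and 85.6 TPM in sgMETTL1.3 cells, 89.4 and 89.0 TPM in sgMETTL1.6 cells and 74.6 and 74.1 TPM in sgNS cells, a change of 0.23 (SE 0.033, limma adjusted p = 6.05e-05). The other anchor, SDHD (11:112086773-112120013), did not follow. It had 223 and 239 TPM in sgMETTL1.3 cells, 289 and 283 TPM in sgMETTL1.6 cells and 265 and 246 TPM in sgNS cells. It fell with sgMETTL1.3, with a change of -0.14 (SE 0.043, limma adjusted p = 0.0115), and rose with sgMETTL1.6, with a change of 0.16 (SE 0.043, limma adjusted p = 0.00733). These groups do not overlap between the guides, and the sgNS values lie between them. Over both guides the change was 0.009 (SE 0.038, limma adjusted p = 0.859). Among the assembly factors, SDHAF2, which attaches FAD to SDHA, rose by 0.26 (SE 0.036, limma adjusted p = 3.54e-05). SDHAF3, a factor for SDHB maturation, had 14.4 and 15.1 TPM in sgMETTL1.3 cells, 16.01 and 17.1 TPM in sgMETTL1.6 cells and 18.6 and 17.9 TPM in sgNS cells, a change of -0.21 (SE 0.053, limma adjusted p = 0.00376). This fall, too, was not called once sgNS replicate 1 was left out. SDHAF1, which helps iron-sulfur insertion, and SDHAF4, a chaperone of SDHA, did not pass, with changes of 0.17 (adjusted p = 0.0989) and -0.031 (adjusted p = 0.511) by limma.

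Complex IV subunits rose by small amounts. COX6B1 averaged 673 ± 14.6 TPM in sgMETTL1.3 cells, 723 ± 0.127 TPM in sgMETTL1.6 cells and 579 ± 23.0 TPM in sgNS cells (SD, n = 2 each), a change of 0.27 (SE 0.028, limma adjusted p = 3.4e-06). COX6A1 followed with 0.25 (SE 0.028, limma adjusted p = 5.8e-06), but shares 44.0% of its 50-base stretches with other annotated genes. COX6C had 296 and 291 TPM in sgMETTL1.3 cells, 362 and 350.2 TPM in sgMETTL1.6 cells and 292 and 279.9 TPM in sgNS cells, a change of 0.18 (SE 0.030, limma adjusted p = 0.000193). COX5A and COX5B changed by 0.13 (adjusted p = 0.000802) and 0.090 (adjusted p = 0.00675) by limma, and COX5B lost its call without sgNS replicate 2, with ribosomal protein genes removed or after quantile normalization. COX7B and COX7C, the small subunits of the highest level, rose by 0.17 and 0.10 over both guides. COX7C changed by 0.009 with sgMETTL1.3 (limma adjusted p = 0.814) and by 0.19 with sgMETTL1.6, and its guide libraries overlapped sgNS. COX4I1, the common form of subunit 4, had 519 and 525 TPM in sgMETTL1.3 cells, 518 and 529 TPM in sgMETTL1.6 cells and 501 and 507 TPM in sgNS cells. Its change of 0.053 (SE 0.025, limma adjusted p = 0.0885) did not pass. COX8A, with 27.7% of its stretches in another annotated gene, was the other subunit that did not pass, with 847 and 946 TPM in sgMETTL1.3 cells, 903 and 946 TPM in sgMETTL1.6 cells and 930.0 and 958 TPM in sgNS cells.

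The deepest fall of all members was in COX7A2L, which joins complexes III and IV into supercomplexes (2:42333546-42425088). It had 84.5 and 86.6 TPM in the sgMETTL1.3-labelled libraries, 83.4 and 76.7 TPM in the sgMETTL1.6-labelled libraries and 123 and 122 TPM in the sgNS-labelled libraries. All 4 guide libraries lay far below both sgNS libraries, and the change was -0.56 (SE 0.039, limma adjusted p = 6.89e-08). Its relative COX7A2, a subunit of complex IV itself, had 706 and 703 TPM in sgMETTL1.3 cells, 767 and 774 TPM in sgMETTL1.6 cells and 659 and 677 TPM in sgNS cells, a rise of 0.14 (SE 0.024, limma adjusted p = 0.000249) that became 0.078 after quantile normalization. The other complex IV factors that fell were COX19 and COX20. COX19, a copper-handling protein, had 23.5 and 23.3 TPM in sgMETTL1.3 cells, 22.5 and 23.4 TPM in sgMETTL1.6 cells and 27.5 and 26.8 TPM in sgNS cells, a change of -0.22 (SE 0.045, limma adjusted p = 0.00101). COX20, a chaperone of the mitochondrially encoded subunit MT-CO2, had 101 and 94.8 TPM in sgMETTL1.3 cells, 105 and 97.6 TPM in sgMETTL1.6 cells and 117 and 109.6 TPM in sgNS cells, a change of -0.19 (SE 0.043, limma adjusted p = 0.00226). Leaving out sgNS replicate 1 ended the call of COX20 and kept those of COX7A2L and COX19.

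Of the other complex IV factors, 3 rose. COX14, which helps assemble MT-CO1, had 34.5 and 32.4 TPM in sgMETTL1.3 cells, 31.2 and 37.1 TPM in sgMETTL1.6 cells and 27.6 and 30.7 TPM in sgNS cells, a change of 0.21 (SE 0.066, limma adjusted p = 0.0154). COX10, of haem A synthesis, had 15.5 and 15.6 TPM in sgMETTL1.3 cells, 13.2 and 13.6 TPM in sgMETTL1.6 cells and 12.9 and 12.8 TPM in sgNS cells, a change of 0.16 (SE 0.051, limma adjusted p = 0.0183). COX16, another assembly factor, rose by 0.13 (SE 0.053, limma adjusted p = 0.0437), and 34.4% of its 50-base stretches occur in a read-through gene. The rise of COX14 was not called without sgNS replicate 1, where it was 0.13, and that of COX10 was not called without either sgNS library. COX15, the next enzyme of haem A synthesis, COX17, a copper chaperone, and COX18, which inserts MT-CO2, did not pass (35.5% of the COX15 stretches occur in another gene), with changes of 0.009 (adjusted p = 0.902), 0.036 (adjusted p = 0.327) and 0.081 (adjusted p = 0.249) by limma. Of the names outside the complexes, ATP5SL (DMAC2), a complex I assembly factor, rose by 0.24 (SE 0.045, limma adjusted p = 0.000512).

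The guides differed from each other mostly in one direction. Between sgMETTL1.6 and sgMETTL1.3, 15 of 58 members were higher with sgMETTL1.6, 1 was lower and 42 did not pass. Of all genes tested, 23% were called in this comparison, 7.23% as higher and 15.8% as lower. The highest were SDHD, with a difference of 0.31 (SE 0.043, limma adjusted p = 0.000493), and COX6C, with 0.28 (SE 0.034, limma adjusted p = 0.000159). Next came CYCS at 0.21 (adjusted p = 0.0193), UQCRH at 0.21 (adjusted p = 0.000493) and COX17 at 0.21 (adjusted p = 0.00162), all by limma. COX10 was the member lower with sgMETTL1.6, with a difference of -0.19 (SE 0.059, limma adjusted p = 0.0328). Complex IV, with 19 tested members the largest, held 7 of the 15 (36.8% of its members), of which 6 were subunits. Complex II held 2 of its 8 (25%), complex III 2 of 13 (15.4%) and complex V 3 of 16 (18.8%), with CYCS the last. Leaving out sgMETTL1.3 replicate 1 gave 7 higher members, and leaving out replicate 2 also gave 7. COX10 lost its call when any sgMETTL1.3 or sgMETTL1.6 library was left out. UQCRC1 was then the lower member without sgMETTL1.3 replicate 1 and without sgMETTL1.6 replicate 2, COX7A2L without sgMETTL1.6 replicate 1, and none without sgMETTL1.3 replicate 2. Median-ratio scaling turned the split of all called genes, to 1102 higher and 809 lower against 789 higher and 1721 lower as deposited, with 20 members higher and 0 lower.

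Coding length moved with this difference. It was taken as the longest coding sequence annotated for a gene (GENCODE 29, basic set), which need not be the form these cells use. The 15 members higher with sgMETTL1.6 had a median coding length of 309 bases (153 to 483), and 13 of them were under 450 bases. The other 43 had a median of 498 bases, with 19 under 450. Of all genes tested under 450 bases, 22.5% of 694 were higher with sgMETTL1.6 and 8.6% lower. For 450 to under 1500 bases these shares were 9.2% and 12.9%, and for 1500 bases or more 3.0% and 20.0%. Among members under 450 bases, 13 of 32 (40.6%) were higher and none lower. Against sgNS, sgMETTL1.6 also gave more rises among short genes. Of all genes tested, 38.3% under 450 bases, 28.6% of the middle class and 20.8% at 1500 bases or more were higher. With sgMETTL1.3 these shares were 35.2%, 34.4% and 34.1%. Among members under 450 bases, 25 of 32 (78.1%) rose with sgMETTL1.6. The part of coding length in the members' changes, and in their difference between the guides, was not tested.

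**Figure D5:**
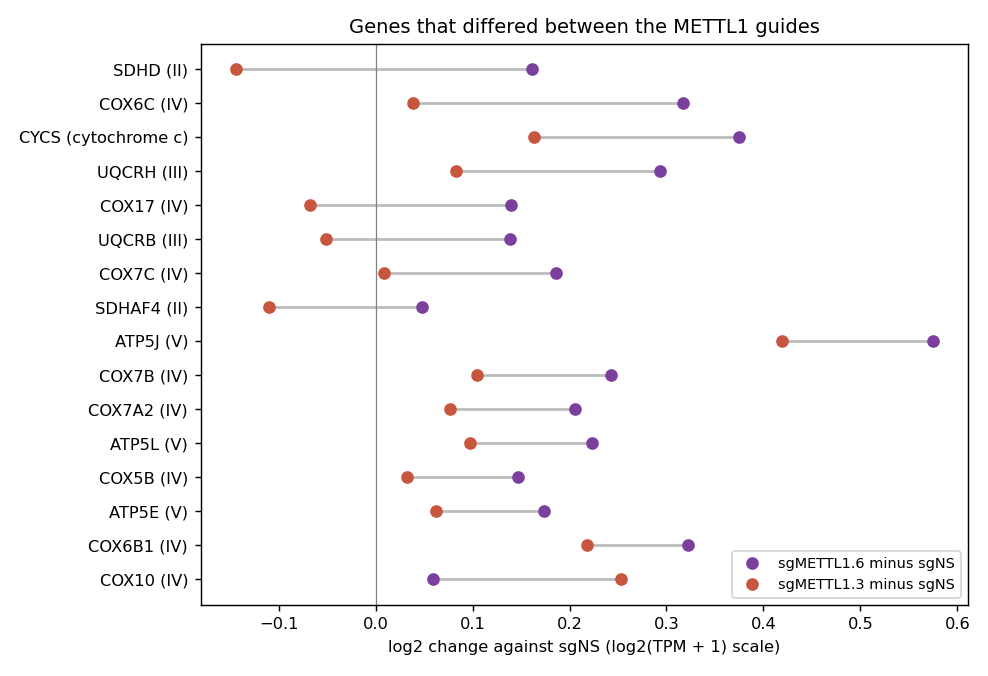
The log2(TPM + 1) change against sgNS is plotted for the 16 members called between the guides, with sgMETTL1.6 and sgMETTL1.3 as the 2 points of a line; both use the same sgNS libraries. SDHD lies on opposite sides of 0, at 0.16 with sgMETTL1.6 and -0.14 with sgMETTL1.3.

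Genes of the same complexes that carry other names were counted apart. Of 18 tested complex IV factors with other names, 8 rose (44.4%), 4 fell (22.2%) and 6 did not pass, beside 32.6% and 26.8% of all genes, with a median of 0.076. COA3, which acts on MT-CO1, had 69.2 and 64.3 TPM in sgMETTL1.3 cells, 64.4 and 69.6 TPM in sgMETTL1.6 cells and 42.5 and 43.7 TPM in sgNS cells, a change of 0.62 (SE 0.045, limma adjusted p = 1.05e-07). TACO1, a translational activator of MT-CO1, rose by 0.50 (SE 0.039, limma adjusted p = 2.4e-07), and OXA1L, the inner-membrane insertase, changed by -0.24 (SE 0.030, limma adjusted p = 2.03e-05). Of 10 complex III and V factors and subunits with other names, 4 rose (40%), 1 fell (10%) and 5 did not pass. Their median was 0.067, and the shares among all genes were 32.6% and 26.8%. The fall was in TTC19, with a change of -0.19 (SE 0.052, limma adjusted p = 0.00697). Those that rose included USMG5 (0.34) and C14orf2 (0.25), small ATP synthase subunits, and BCS1L (0.18), which inserts the Rieske protein. BCS1L changed by 0.33 with sgMETTL1.3 but by 0.040 with sgMETTL1.6 (limma adjusted p = 0.578), and its libraries overlapped sgNS. NDUFA4, now counted as a complex IV subunit, rose by 0.22 (SE 0.031, limma adjusted p = 5.3e-05).

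Of 13 tested regulators of nuclear genes for the mitochondrion, 5 rose (38.5%), 4 fell (30.8%) and 4 did not pass, which is about the share among all genes, with a median of 0.036. SP1 had 65.7 and 63.8 TPM in sgMETTL1.3 cells, 59.6 and 59.3 TPM in sgMETTL1.6 cells and 84.6 and 86.2 TPM in sgNS cells, a change of -0.45 (SE 0.036, limma adjusted p = 2.36e-07). The coactivators PPARGC1B and PPRC1 rose by 0.38 and 0.26. NRF1 did not pass, with a change of 0.036 (SE 0.052, limma adjusted p = 0.573). GABPA, the DNA-binding subunit of GABP, fell, with a change of -0.17 (SE 0.057, limma adjusted p = 0.0178). For 43 complex I genes (names starting NDUF, without NDUFA4 and its paralogue NDUFA4L2), 25 rose (58.1%) and 5 fell (11.6%). Their median was 0.17, near that of the members. For 74 mitochondrial ribosomal protein genes, 55 rose (74.3%) and 6 fell (8.11%), with a median of 0.21. Beside these stand 72.4% and 12.1% for the members, and 32.6% and 26.8% for all genes tested, whose median was 0.023. NDUFA4L2 fell further than any gene of these lists, with 1.52 and 1.65 TPM in sgMETTL1.3 cells, 1.19 and 1.10 TPM in sgMETTL1.6 cells and 7.05 and 7.14 TPM in sgNS cells and a change of -1.78 (SE 0.082, limma adjusted p = 1.28e-09).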

How the data were processed

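Poly(A) RNA of 6 libraries was sequenced, and the authors deposited 1 table of TPM (transcript abundance per length, scaled to a fixed total per library) for 18806 genes, with no read counts. RSEM 1.2.31 and build GRCh38 are named per the submitters' processing notes, and for the aligner and the gene models the sources used here name nothing. The kit keeps strand, per the labels' protocols. Columns were matched to samples by the label descriptions, and 0 columns were left unmapped. From the table, log2(TPM + 1) was fitted for the 10911 genes averaging 1 TPM or more by limma 3.58.1 (R 4.3.3) with a mean-variance trend, all 3 groups in 1 model with 3 residual degrees of freedom, and p-values were adjusted by Benjamini-Hochberg over all genes tested, with a threshold of 0.05. The fit was tested on simulated data with known changes. Contrasts set the mean of both METTL1 guides, and each guide alone, against sgNS, and then one guide, sgMETTL1.6, against the other. Members, gene lists and tests were chosen with earlier results of these data known. Genes are named by rule: METTL1, the highest rises and deepest falls of each complex, core subunits, isoforms, members past the test between guides, and the lowest p-values of each other list. ATP5J2, ATP5O, the complex II to IV factors and regulators given besides were chosen after their values were seen. Positions and 50-base stretches shared between genes come from GENCODE 29 (GRCh38), promoter windows from RefSeq (GRCh38.p14). COA1, of the listed complex IV factors, was not analysed here. Alternatives are given in the closing section.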

Additional observations from a re-analysis of the deposited data

Results flagged for a closer look

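For METTL1 and 16 respiratory genes, the effects of the guides differed by limma's test of the difference itself, sgMETTL1.6 minus sgMETTL1.3, over all genes tested. Each value is a log2(TPM + 1) difference over 2 libraries a group. METTL1 gave -0.57 (adjusted p = 0.00018), and its mRNA with sgMETTL1.3 stood above sgNS. In complex II, SDHD gave 0.31 (adjusted p = 0.000493) and SDHAF4 0.16 (adjusted p = 0.0237). In complex III, UQCRH gave 0.21 (adjusted p = 0.000493) and UQCRB 0.19 (adjusted p = 0.00817). CYCS gave 0.21 (adjusted p = 0.0193). In complex IV, the subunits COX6C, COX7C and COX7B gave 0.28 (adjusted p = 0.000159), 0.18 (adjusted p = 0.00154) and 0.14 (adjusted p = 0.00595). COX7A2, COX5B and COX6B1 gave 0.13 (adjusted p = 0.00693), 0.11 (adjusted p = 0.0137) and 0.10 (adjusted p = 0.0373). The copper chaperone COX17 gave 0.21 (adjusted p = 0.00162), and COX10 gave -0.19 (adjusted p = 0.0328), the one member lower with sgMETTL1.6. In complex V, ATP5J, ATP5L and ATP5E gave 0.16 (adjusted p = 0.00848), 0.13 (adjusted p = 0.0105) and 0.11 (adjusted p = 0.00833). After quantile normalization COX6B1 gave 0.058, COX7C 0.096 and ATP5E 0.065, and these were not called. Of the 15 that were higher, 13 had a coding length under 450 bases, and the part of length was not tested.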

How the results depend on the processing

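Calls were recomputed with other pseudocounts (0.1 and 5), no filter or a mean of at least 5 TPM, median-ratio or quantile scaling, ribosomal protein genes removed, no variance trend, other-function names removed, a replicate block, and each library left out. Over both guides, rises numbered 42 and ranged from 36 to 43 with a library left out, and falls numbered 7 and ranged from 3 to 8, the lowest without sgNS replicate 1. Rises with sgMETTL1.3 numbered 37 (29 to 36) and falls 9 (6 to 9), and median-ratio scaling gave 28 rises. With sgMETTL1.6, rises numbered 43 (38 to 43) and falls 5 (3 to 5), and falls were 3 with no filter and 3 with no variance trend. Between the guides, sgMETTL1.6 against sgMETTL1.3, higher calls numbered 15 (7 to 16), and 5 with no variance trend. Lower calls numbered 1 (0 to 1), with 0 under no filter, with ribosomal protein genes removed and also under median-ratio scaling, and 3 at a mean of at least 5 TPM. By complex, falls with a library left out were 0 to 1 in complex II, 0 to 1 in complex III, 2 to 4 in complex IV and 1 to 2 in complex V, and complex V had 1 without other-function names. Rises were 4 to 5, 11 to 11, 7 to 11 and 12 to 14 in complexes II, III, IV and V, and 7 in complex IV with no variance trend. Deviations by replicate number correlated at -0.005 between sgMETTL1.3 and sgNS, 0.207 between sgMETTL1.6 and sgNS, and 0.145 between the guides. A shared replicate effect therefore cannot be set aside, and the main fit leaves it out. Over all genes tested, the replicate block gave 1103 higher and 2512 lower between the guides, against 789 and 1721 in the main fit. With the replicate block, 44 members rose and 7 fell over both guides, and 17 were higher and 4 lower between the guides. Near-zero changes turned sign: with a library left out, METTL1 over both guides ran from -0.12 to 0.022, COX17 from -0.001 to 0.073 and SDHD from -0.046 to 0.063 (-0.017 without sgMETTL1.3 replicate 2). SDHD was -0.022 without ribosomal protein genes, and -0.016 by median ratios. Among single-gene values, 978 kept direction and call, 63 lost the call and 3 gained it. The cause of these shifts was not tested. Depth is unknown for TPM, and 2 libraries a group limit precision.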
